A study of Mus musculus with 6 samples.

Results

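The genes described here are 7 genes of the articular and joint surface, Prg4, Creb5, Erg, Osr1, Osr2, Has1 and Has2, taken as a named set with earlier results of these data known. They were found by gene name among the 46078 genes of the count tables, and all 7 passed the filter on low counts that left 16813 genes for testing. Growth plate cartilage of the knee (distal end of the femur, proximal end of the tibia) was taken at E18.5 from control and Idh1 mutant mice. Its RNA was sequenced in 3 libraries per group, and the number of animals in each library is not stated. Mutants carried Col2a1-Cre and Idh1 LSL/+, an allele whose mutant Idh1 is silent until Cre removes a stop cassette. Controls carried the same Idh1 LSL/+ allele without Cre, so Cre itself and the expressed mutation cannot be told apart between the groups. Cre was driven by Col2a1 regulatory elements and so acts in Col2a1-expressing cells and their descendants, while the libraries were made from whole dissected tissue. The comparison asks whether expression of the mutant enzyme in cartilage goes with a different level of joint surface genes.

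The joint surface is laid down by cells of the interzone, which leave the chondrocyte programme of the shaft cartilage and become articular cartilage, synovium and ligament. Prg4 encodes lubricin, the lubricant secreted by superficial zone cells. Creb5 is a basic leucine zipper transcription factor known for promoting Prg4 in superficial articular cells, and Erg is an ETS factor of the articular chondrocyte lineage that is also a standard endothelial factor. Osr1 and Osr2 are the odd-skipped zinc finger factors needed in joint formation and also present in limb connective tissue. Has1 and Has2 are plasma membrane enzymes that make hyaluronan, the polymer of synovial fluid and of the cartilage matrix.

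The libraries held 23445687 to 30415773 counted reads, so 3 counts in a library correspond to 0.0986 to 0.128 CPM (the counts-per-million unit, with library totals scaled by TMM for the gene levels). Idh1 itself was at 37.3, 39.2 and 65.4 CPM in controls and 47.6, 47.7 and 56.3 CPM in mutants, a gene-level value that does not separate the mutant from the wild-type transcript. Chondrocyte markers were abundant in every library (Col2a1 at 1923 to 5245, Acan at 711 to 895 and Sox9 at 75.1 to 121 CPM), and the summed level of 5 skeletal muscle markers was 11797 to 18493 CPM, so the libraries held RNA of other tissues of the limb. Mutant 3 stood apart from the others, with 26356 Xist counts against 0 to 13 and 512 Y-linked counts against 4193 to 5829. Values without mutant 3 are therefore given beside the member values. In such bulk tissue, fewer cells of a type and less RNA per cell cannot be told apart.

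The 7 genes lie on 6 chromosomes (GRCm38, positions of the counted gene models) and are all protein coding. Prg4 (ENSMUSG00000006014) is at chr1:150449412-150466165 on the reverse strand, Creb5 (ENSMUSG00000053007) at chr6:53573384-53696007 on the forward strand and Erg (ENSMUSG00000040732) at chr16:95359169-95586593 on the reverse strand. Osr1 (ENSMUSG00000048387) is at chr12:9574442-9581499 and Osr2 (ENSMUSG00000022330) at chr15:35296098-35303304, both on the forward strand. Has1 (ENSMUSG00000003665) is at chr17:17843328-17855188 and Has2 (ENSMUSG00000022367) at chr15:56665627-56694539, both on the reverse strand. The counting did not use strand and left out multi-gene reads. In the GENCODE M21 annotation, exons of Tpr on the opposite strand overlap 204 exonic bases of Prg4. Exons of the antisense RNA Has2os overlap 182 exonic bases of Has2. Where the counted models share such bases, reads over both genes were counted for neither.

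The counted model matters most for Creb5. It starts at the downstream of 2 RefSeq start sites and leaves out 5628 of the 8666 exonic bases (64.9%) of the gene's protein-coding transcripts in GENCODE M21. The values given for Creb5 cover that part of the gene only. For the other 6 genes, at most 4.6% of such bases were left out. The set of RefSeq (GRCm38.p6) windows before start sites used here held 3 of the 7 genes, Creb5 with 2 starts, Erg with 3 and Has1 with 1. The other genes were missing from that set, which does not mean that RefSeq has no start sites for them. The 2 Creb5 windows are shown because the counted model separates the starts, and the Has1 window because it was the only other one with a searched motif. Each is the 250 bases before the start, 5′ to 3′ on the gene's strand, and the capitals mark a match to the cAMP response element TGACGTCA or the AP-1 site TGANTCA, the letters that basic leucine zipper dimers bind.

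Creb5 upstream start, chr6:53287053-53287302, forward strand: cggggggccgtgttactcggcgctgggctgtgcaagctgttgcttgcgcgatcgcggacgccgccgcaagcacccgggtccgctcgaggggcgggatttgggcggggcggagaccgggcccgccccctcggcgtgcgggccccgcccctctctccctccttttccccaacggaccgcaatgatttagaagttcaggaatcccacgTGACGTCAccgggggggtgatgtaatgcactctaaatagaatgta
Creb5 downstream start, chr6:53573124-53573373, forward strand: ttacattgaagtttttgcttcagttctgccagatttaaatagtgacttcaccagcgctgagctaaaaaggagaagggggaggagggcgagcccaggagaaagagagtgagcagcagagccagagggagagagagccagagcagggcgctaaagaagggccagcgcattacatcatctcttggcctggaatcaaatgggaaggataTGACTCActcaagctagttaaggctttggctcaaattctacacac
Has1, chr17:17855189-17855438, reverse strand: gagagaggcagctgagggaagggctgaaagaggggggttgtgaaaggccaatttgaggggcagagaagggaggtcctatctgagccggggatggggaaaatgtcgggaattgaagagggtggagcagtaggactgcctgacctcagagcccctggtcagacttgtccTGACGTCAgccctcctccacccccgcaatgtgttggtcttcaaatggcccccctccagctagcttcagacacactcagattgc

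The cAMP response element began 45 bases before the upstream Creb5 start and 83 bases before the Has1 start, and the AP-1 site began 45 bases before the downstream Creb5 start. Searched on both strands, TGACGTCA was present in 1.55% and TGANTCA in 6.75% of 32851 promoter windows of the same length. The ETS letters CCGGAAGT, present in 2.88% of those windows, were in none of the 6 windows of Creb5, Erg and Has1. A match describes the letters in the window and is not evidence of binding.

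None of the 7 genes passed an adjusted p of 0.05 between mutants and controls in the quasi-likelihood test of edgeR, with p-values adjusted by Benjamini-Hochberg over all 16813 genes. In the background, 32 genes passed (0.19%), 9 higher and 23 lower in mutants. All 7 genes had overlapping groups, where 14.4% of all tested genes had groups that did not overlap. At an unadjusted p under 0.05, edgeR and limma-voom each gave 1 of the 7 genes, Prg4, and DESeq2 gave 0, where edgeR gave 1452 of all 16813 tested genes. The median log2 fold change over the 7 genes was -0.03 and that over all tested genes -0.0026. With 3 against 3 libraries, the exact two-sided permutation test cannot give a p below 0.1, and for the 7 genes it gave 0.3 to 0.7.

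**Figure D1:**
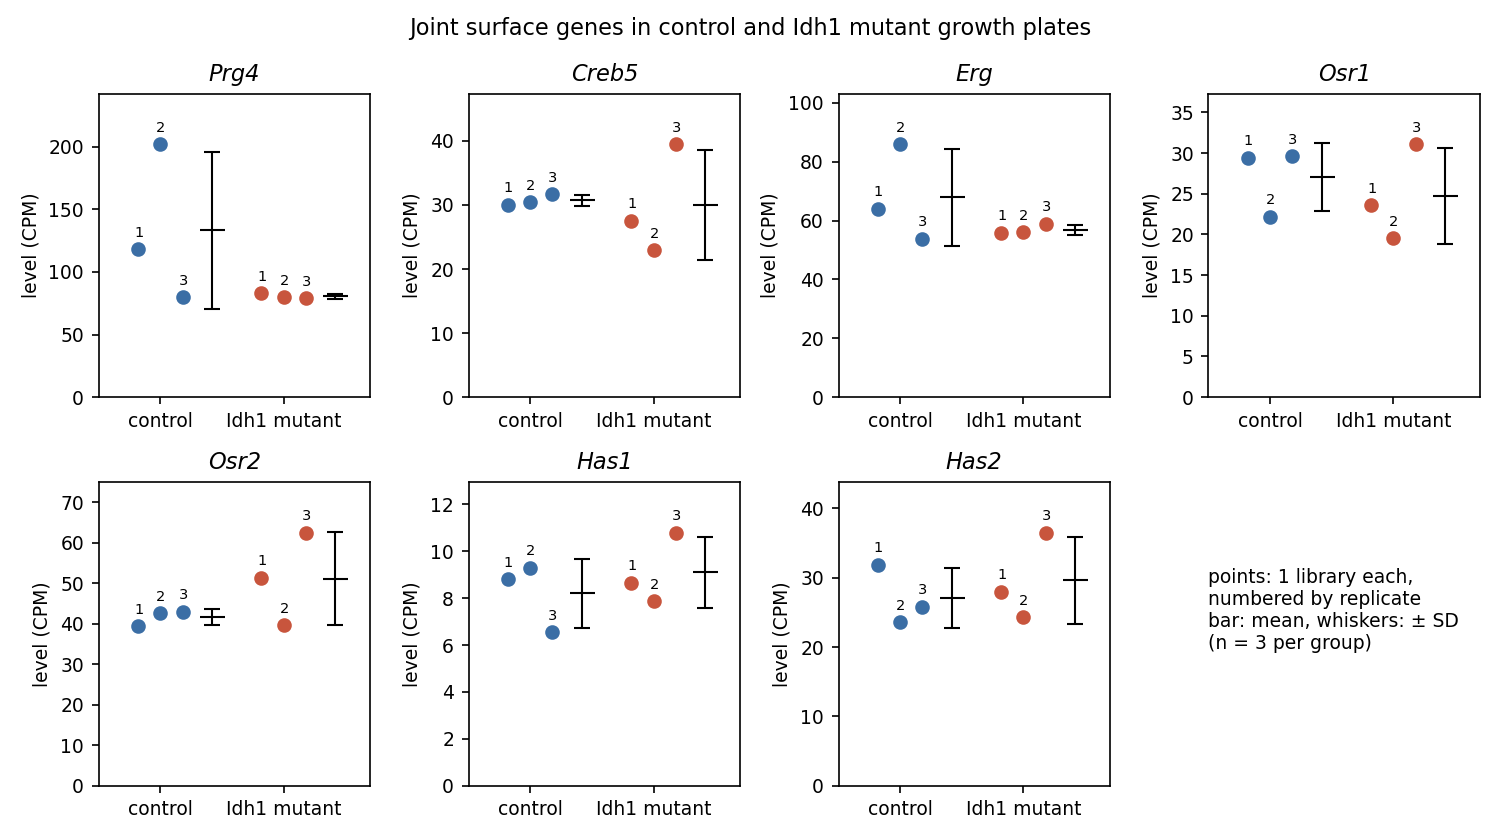
Level of each joint surface gene in CPM, with 1 point per library numbered by replicate, and the mean ± SD of the 3 control and 3 Idh1 mutant libraries beside them. Prg4 reached 202 CPM in control 2 while the 3 mutants lay between 78.9 and 82.8 CPM, and mutant 3 was the highest library for Creb5, Osr1, Osr2, Has1 and Has2.

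Prg4, the secreted lubricant, gave the difference with the lowest unadjusted p among the 7. It was at 118, 202 and 79.6 CPM in controls 1, 2 and 3 and at 82.8, 79.7 and 78.9 CPM in mutants 1, 2 and 3. The mutants lay close together at the level of the lowest control, and the spread was in the controls, where the highest library was 2.54 times the lowest, against 1.05 times in mutants. The means were 133 ± 62.7 CPM in controls and 80.5 ± 2.03 CPM in mutants (SD, n = 3), a log2 fold change of -0.73 with a 95% interval of -1.32 to -0.14 (edgeR, unadjusted p = 0.0205, adjusted p = 0.469). That is 0.604 times the control level, with an interval of 0.401 to 0.908. Control 2 carried much of it, since without this library the log2 fold change was -0.29 (edgeR, adjusted p = 0.644). It was -0.99 without control 3 and -0.72 without mutant 3 (edgeR, adjusted p = 0.144 and 0.676). Keeping every gene with a count in the test gave the same log2 fold change of -0.73 with an adjusted p of 0.00473 in edgeR, the only setting that moved a member past the threshold. That setting called 259 of 28686 genes, against 32 of 16813 with the low-count filter.

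Erg, the ETS factor, had a like pattern over the libraries on a smaller scale. Its levels were 64.0, 86.0 and 53.8 CPM in controls and 55.9, 56.0 and 58.9 CPM in mutants. Control 2 was again the highest library, the mutants again lay close together, and control 3 was below all of them. The log2 fold change was -0.26 with a 95% interval of -0.58 to 0.07 (edgeR, adjusted p = 0.698), and it was -0.04 without control 2, -0.39 without control 3 and -0.28 without mutant 3 (edgeR, adjusted p = 0.925, 0.432 and 0.773). Because endothelial cells also express Erg, 7 endothelial markers were examined. Their summed level was 850, 842 and 873 CPM in controls and 861, 903 and 954 CPM in mutants, and none of the 7 passed the threshold. Control 2 was the highest library for none of them and the lowest for 1. The part of endothelial cells in the Erg values was not tested. Pecam1, an endothelial adhesion molecule, was at 236 to 276 CPM and Cdh5, the endothelial cadherin, at 239 to 296 CPM, with log2 fold changes of 0.06 and -0.03. Emcn and Kdr, an endothelial sialomucin and a VEGF receptor, had the lowest unadjusted p of these markers, with log2 fold changes of 0.30 and 0.25 (edgeR, adjusted p = 0.323 and 0.324).

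Prg4 and Erg followed each other over the 6 libraries with Pearson's r = 0.98 on log2 CPM and Spearman's rho = 0.60. The exact permutation p was 0.0236 for r and 0.242 for rho, and after adjustment over the 21 pairs of the 7 genes they were 0.248 and 0.696. Controls 1 and 2 had the Prg4 levels farthest from that gene's median. Without them r was -0.24, but Prg4 then ranged only from 78.9 to 82.8 CPM. So narrow a range cannot show whether the relation holds among the other 4 libraries. The chondrocyte markers varied in the same controls, with a summed level of 4186, 5631 and 2522 CPM in controls 1, 2 and 3 and 6251, 4256 and 4731 CPM in mutants, and control 2 was the highest library for Col9a1, Matn1, Sox9 and Comp. Summed erythroid markers, all 4 detected, were at 208, 555 and 240 CPM in controls and 105, 157 and 127 CPM in mutants, again highest in control 2. The part of these differences in the Prg4 and Erg values was not tested.

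Creb5, the leucine zipper factor known to promote Prg4, had a different pattern over the libraries from Prg4. It was at 30, 30.4 and 31.7 CPM in controls and 27.5, 22.9 and 39.5 CPM in mutants. Here the controls lay close together, and the lowest and the highest library were both mutants. The log2 fold change was -0.03 with a 95% interval of -0.41 to 0.35 (edgeR, adjusted p = 0.978), so on the linear scale the interval runs from 0.752 to 1.27 times the control level. It was -0.29 without mutant 3 and 0.13 without mutant 2 (edgeR, adjusted p = 0.653 and 1). Pearson's r between Prg4 and Creb5 over the 6 libraries was 0.03 and Spearman's rho -0.43 (exact permutation p = 0.961 and 0.419, adjusted over 21 pairs 0.961 and 0.696). Without controls 1 and 2, left out for their Prg4 levels, r was -0.38 over a narrow range of Prg4.

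The odd-skipped factors differed in direction, and neither passed the test. Osr2 was at 39.4, 42.6 and 42.9 CPM in controls and 51.3, 39.6 and 62.5 CPM in mutants. The controls lay close together, and 2 mutants stood above all of them while mutant 2 lay among them. Its log2 fold change was 0.30 with a 95% interval of -0.02 to 0.62 (edgeR, adjusted p = 0.626), and it was 0.13 without mutant 3 and 0.46 without mutant 2 (edgeR, adjusted p = 0.868 and 0.446). Osr1 was at 29.4, 22.2 and 29.6 CPM in controls and 23.6, 19.5 and 31.1 CPM in mutants. Each group had both high and low libraries, and the log2 fold change of -0.13 had a 95% interval of -0.51 to 0.26 (edgeR, adjusted p = 0.903). It was -0.33 without mutant 3 and 0.02 without mutant 2 (edgeR, adjusted p = 0.693 and 1). On counts per kilobase, the ratio of Osr2 to Osr1 was 1.56, 2.24 and 1.69 in controls and 2.54, 2.37 and 2.35 in mutants. Every mutant thus had a higher ratio than every control, a description formed after the values were seen and not a test of either gene.

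Neither hyaluronan synthase passed the test. Has2 was at 31.9, 23.6 and 25.8 CPM in controls and 28.0, 24.3 and 36.5 CPM in mutants, and Has1 at 8.81, 9.30 and 6.54 CPM in controls and 8.65, 7.88 and 10.8 CPM in mutants. In both genes mutant 3 was the highest library and the other mutants lay within the control range. The log2 fold change was 0.13 for Has2 with a 95% interval of -0.23 to 0.49 (edgeR, adjusted p = 0.89) and 0.15 for Has1 with an interval of -0.24 to 0.54 (edgeR, adjusted p = 0.88). Without mutant 3 these values were -0.05 and 0.01 (edgeR, adjusted p = 0.962 and 0.998), and with each library left out in turn they reached 0.26 and 0.25. The antisense RNA Has2os was at 2.38 to 3.31 CPM. Has1 rested on 181 to 314 counts per library, the fewest of the 7 genes, and Prg4 on 1953 to 6198, the most.

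**Figure D2:**
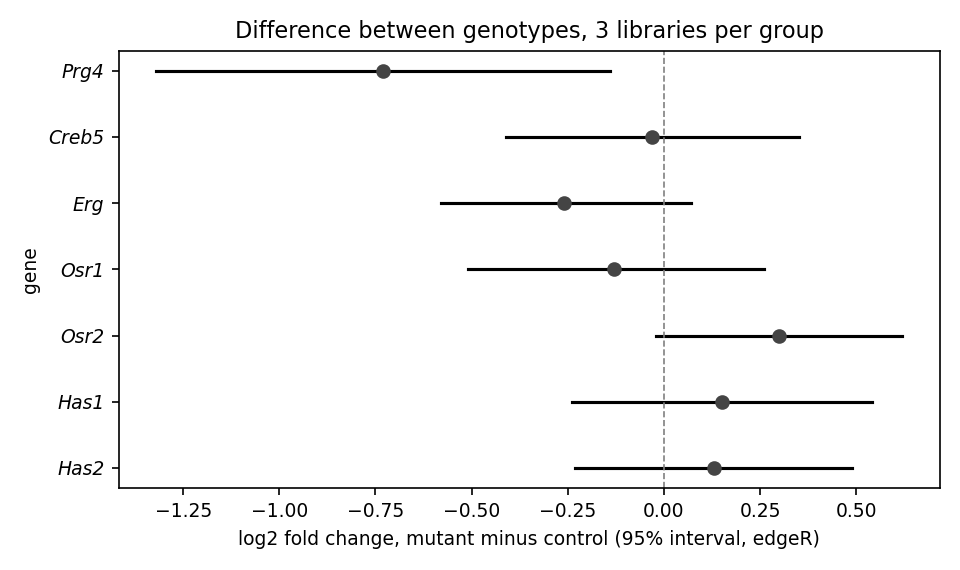
Log2 fold change, mutant minus control, of each joint surface gene with its 95% interval from edgeR over 3 libraries per group (horizontal axis, genes on the vertical axis). Prg4 is the only one of the 7 whose interval (-1.32 to -0.14) leaves out 0, and no gene passed the threshold after adjustment.

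The highest value of 5 of the 7 genes came from a single library. Mutant 3, which also stood apart in Xist and Y-linked counts, was the highest library for Creb5, Osr1, Osr2, Has1 and Has2 (71.4% of the 7), where 14.9% of all tested genes were highest in it, and it was the lowest for Prg4. Control 2 was highest for Prg4 and Erg. The summed levels of 6 fibroblast markers (1423 CPM against 1109 to 1359 in the other libraries), 4 myeloid markers (172 against 125 to 158 CPM) and 7 endothelial markers (954 against 842 to 903 CPM) were also highest in mutant 3, and muscle markers were lowest there. Taken singly, only 3 of the 6 fibroblast, 3 of the 4 myeloid and 4 of the 7 endothelial markers were highest in mutant 3. The part of these tissues in the 5 values was not tested. Of the 21 pairs, Creb5 and Osr1 had the lowest permutation p (r = 0.83, rho = 0.83, exact permutation p = 0.0208 and 0.0583, adjusted 0.248 and 0.696). It was r = 0.50 without mutants 2 and 3, the libraries farthest from the Creb5 median. The highest r among the other pairs of these 5 genes was 0.75, between Osr1 and Has2 (rho = 0.77, exact permutation p = 0.0944 and 0.103, adjusted 0.574 and 0.696). That r was 0.47 without control 2 and mutant 2, the libraries farthest from the Osr1 median. Leaving out the farthest libraries narrows the range, so these lower values do not test the relations.

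**Figure D3:**
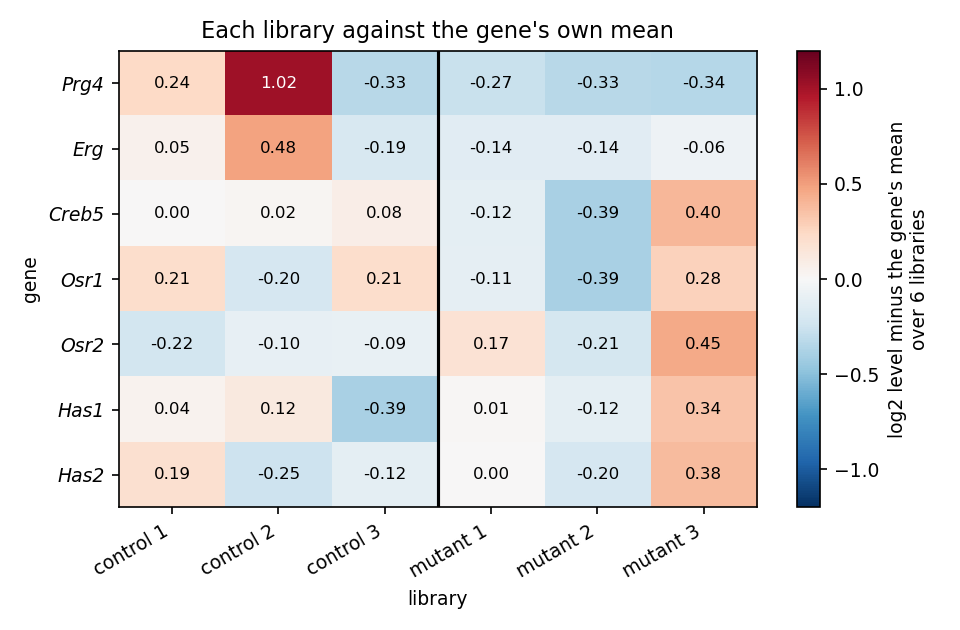
Deviation of each joint surface gene (rows) in each library (columns) from the gene's mean over the 6 libraries, in log2 CPM. Control 2 stands out for Prg4 (1.02) and Erg (0.48), and mutant 3 is above the mean for Creb5, Osr1, Osr2, Has1 and Has2 (0.28 to 0.45).

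Levels between genes were compared as CPM per kilobase of counted exon. Over the 6 libraries the order of the means was Osr2 (26.9 ± 5.24, SD), Prg4 (25 ± 11.5), Erg (18.0 ± 3.48), Osr1 (12.9 ± 2.37), Creb5 (9.99 ± 1.80), Has2 (6.69 ± 1.18) and Has1 (4.15 ± 0.683). The ranges of neighbours overlapped except between Erg and Osr1 and between Has2 and Has1. Within single libraries, each gene was above the next in 6 of 6 libraries, except that Osr2 was above Prg4 in 4. Has2 exceeded Has1 by 1.25 to 1.94 times and Prg4 exceeded Erg by 1.08 to 1.90 times on this scale. For Creb5 the length is that of the counted model.

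The genes most like each of the 7 over the 6 libraries were those with the highest Pearson's r of log2 CPM. For Prg4 they were Dmc1 (0.995), Pxmp4 (0.990) and Foxa3 (0.989), and for Erg G2e3 (0.986), Ccdc34 (0.986) and Pxmp4 (0.985). Control 2 was the highest library for all 5 of these genes, as for Prg4 and Erg. For Creb5 they were 1700025G04Rik (0.991), Cpd (0.984) and Tshr (0.982), for Osr1 Gprc5b (0.990), Klf13 (0.988) and Mrip-ps (0.986), and for Osr2 Trabd2b (0.990), Rcan1 (0.982) and Gm6556 (0.973). For Has1 they were Platr25 (0.993), Exd1 (0.988) and 1810009A15Rik (0.987), and for Has2 Hif1a (0.985), Gm15441 (0.983) and Epha7 (0.983). These are the highest of 16813 values over 6 points each and are a description only.

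Other genes of the joint surface were examined as lists to place the 7 genes. Of 9 superficial cartilage genes, 2 were lower in mutants past the threshold and none higher, beside 23 lower and 9 higher of all 16813 tested genes. Cilp, a cartilage matrix protein, was at 164, 168 and 134 CPM in controls and 92.9, 105 and 84.9 CPM in mutants, a log2 fold change of -0.72 ± 0.11 (SE; edgeR, adjusted p = 0.0444). Vit, which encodes the matrix protein vitrin, was at 12.2, 15 and 11.9 CPM in controls and 4.66, 3.33 and 2.24 CPM in mutants, a log2 fold change of -1.94 ± 0.23 (SE; edgeR, adjusted p = 0.0253). All 3 mutants were below all 3 controls for both genes. In all, 6 of the 9 had mutants below controls without overlap, beside 7.58% of all tested genes in that direction, and the list's median log2 fold change was -0.48. The gene lists were drawn up with earlier results of these data known, so such counts describe the lists and are no independent evidence of a direction. The summed level of the 9 genes was 1239 to 1358 CPM in controls and 1055 to 1144 CPM in mutants.

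Of 10 joint interzone genes, 1 passed the threshold, beside 32 of all 16813 tested genes (0.19%). Wnt4, a secreted signal of the interzone, was at 22.8, 22.6 and 24.5 CPM in controls and 16.1, 14.9 and 15.4 CPM in mutants, a log2 fold change of -0.59 ± 0.09 (SE; edgeR, adjusted p = 0.0444). The groups did not overlap, while the list's median log2 fold change was -0.08. Gdf5, the growth factor that marks the interzone, was at 6.72 to 13.5 CPM with a log2 fold change of 0.33 (edgeR, adjusted p = 0.746). Wnt9a, another interzone signal, had a log2 fold change of -0.11 (edgeR, adjusted p = 0.871), and Enpp2, the enzyme autotaxin, one of -0.53 (edgeR, adjusted p = 0.252). With each library left out in turn, and so fewer samples in the fit, the calls of Vit, Cilp and Wnt4 were often lost while their log2 fold changes kept their direction. Vit passed in 3 of 6 fits and was lost without control 1, control 2 or mutant 2 (log2 fold change -2.23 to -1.71 over the 6 fits, highest adjusted p 0.113 in edgeR). Cilp passed only without control 3 (adjusted p 0.0372 to 0.214 in edgeR) and Wnt4 in none (0.0965 to 0.243), with log2 fold changes of -0.82 to -0.65 and -0.62 to -0.55.

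Of 5 tendon and ligament markers, 1 was lower in mutants past the threshold and none higher, beside 23 lower and 9 higher of all 16813 tested genes. Tnmd (tenomodulin) was at 548, 527 and 437 CPM in controls and 257, 287 and 321 CPM in mutants (log2 fold change -0.81, edgeR adjusted p = 0.0374). With each library left out in turn its log2 fold change was -0.90 to -0.73, and it passed only without control 3 (edgeR, adjusted p 0.0372 to 0.211). Scx, a transcription factor of tendon progenitors, had a log2 fold change of -0.46 (edgeR, adjusted p = 0.135) and Kera, a matrix proteoglycan, one of -0.75 (edgeR, adjusted p = 0.135). Of the 5, 4 had mutants below controls without overlap (7.58% of all tested genes did), and the summed level was 1528 to 1678 CPM in controls and 1207 to 1474 CPM in mutants. Krt5, an epidermal keratin, was also lower past the threshold, at 2.95, 7.90 and 5.53 CPM in controls and 0.339, 0 and 0.379 CPM in mutants (edgeR, adjusted p = 0.0355), and with each library left out in turn its log2 fold change was -5.00 to -3.90 and it passed only without control 1 (edgeR, adjusted p 0.0365 to 0.132). The part of tendon, ligament or skin in the dissected tissue in the values of Cilp, Vit, Wnt4 and Prg4 was not tested.

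**Figure D4:**
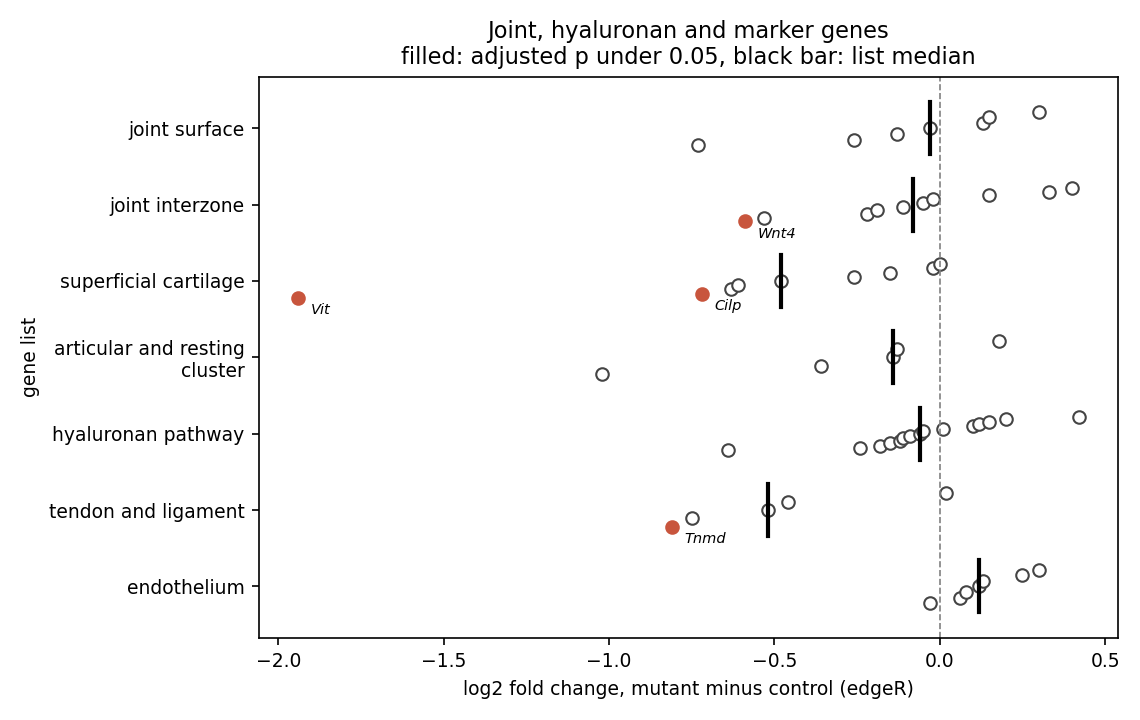
Log2 fold change, mutant minus control (edgeR), of every tested gene of 7 lists (vertical axis), with genes past an adjusted p of 0.05 filled and named and each list's median as a black bar. All 9 superficial cartilage genes lie at or below 0 (median -0.48), while the 7 joint surface genes lie on both sides of 0 (median -0.03).

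The study chose articular and resting cartilage cluster genes from its single-cell data, Wif1, Grem1, Barx1, Ucma, Bgn and the member Creb5 described above. It reported fewer mutant cells in both clusters and, by immunofluorescence, less Creb5 and Ucma protein in mutants. Those are cell shares and protein, while the values here are bulk RNA, for Creb5 of part of the gene only. Of Wif1, Grem1, Barx1, Ucma and Bgn, none passed the threshold, and their median log2 fold change was -0.14. Ucma, a secreted protein of resting chondrocytes, had the lowest unadjusted p, at 44.2, 67.3 and 19.1 CPM in controls and 31.0, 16.9 and 17.0 CPM in mutants. As with Prg4, control 2 was the highest library, and the log2 fold change was -1.02 (edgeR, unadjusted p = 0.0272, adjusted p = 0.506). Wif1, a secreted Wnt inhibitor, was at 93.9, 131 and 67.9 CPM in controls and 59.3, 94.5 and 75.0 CPM in mutants (log2 fold change -0.36, edgeR adjusted p = 0.731). Grem1, a BMP antagonist, Barx1, a homeobox factor, and Bgn, the proteoglycan biglycan, had log2 fold changes of 0.18, -0.13 and -0.14.

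Beyond Has1 and Has2, none of 15 genes of hyaluronan synthesis, turnover and binding passed the threshold, and their median log2 fold change was -0.06. Has3, the other hyaluronan synthase, was at 1.44 to 3.20 CPM with a log2 fold change of 0.10. Vcan, a large hyaluronan-binding proteoglycan, was at 821, 650 and 685 CPM in controls and 773, 889 and 1226 CPM in mutants, highest in mutant 3 like Has1 and Has2 (log2 fold change 0.42, edgeR unadjusted p = 0.0313, adjusted p = 0.523). Acan, the main cartilage proteoglycan bound to hyaluronan, had a log2 fold change of 0.20 (edgeR, adjusted p = 0.646).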

How the data were processed

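RNA of control and Idh1 mutant growth plates was measured by single-end poly(A) sequencing, with 3 libraries per group. Per the labels and methods, the authors trimmed reads with Trim Galore 0.6.4, mapped them to GRCm38 with STAR 2.6.1d and deposited raw gene counts from featureCounts 1.6.4, without strand, multi-mapping or multi-gene reads. The labels give an age of E18.5, although their animal care text names a postnatal age. The study's litter term could not be used because the labels hold no litter, so genotype was the only term.

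Counts were tested over the whole table in edgeR 4.0.16 (R 4.3.3) with filterByExpr (minimum count 10, minimum total 15), TMM scaling, the quasi-likelihood test and Benjamini-Hochberg adjustment, called at 0.05. The standard error is the unshrunk log2 fold change over the square root of F. CPM values use TMM-scaled totals. Floors of 3 counts cover counting error only. The biological coefficient of variation was 0.131. The p-values measure the spread between these libraries. The scripts were tested on simulated data. DESeq2 1.42.0, limma-voom (limma 3.58.1), other scalings and filters, a replicate block and leaving out each library were alternatives.

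The members and gene lists were chosen with earlier results of these data known. Named were every member, every list gene past the threshold, the 2 of each list with the lowest p, a set of fixed genes and the 3 genes most like each member. RefSeq windows were searched on both strands.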

Additional observations from a re-analysis of the deposited data

How the results depend on the processing

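With all 6 libraries, 32 genes passed the threshold in edgeR. DESeq2 gave 193, DESeq2 with the replicate block 96, limma-voom 19, edgeR with the replicate block 3, no low-count filter 259, and leaving out 1 library 3 to 17. Whether replicate numbers pair the libraries by litter is not given in the labels. The correlations of same-numbered deviations, -0.16, -0.01 and -0.15, cannot decide it with 3 libraries per group. Of the edgeR calls, 9 of 32 were higher without the block and 2 of 3 with it, the latter too few for a share. In DESeq2, 27.5% of calls were higher without the block and 27.1% with it. Of the 7 joint surface genes 0 passed, except 1, Prg4, with no low-count filter (log2 fold change -0.73, adjusted p 0.00473). Of the list genes outside the marker lists 3 passed. DESeq2 gave 7, no low-count filter 8, upper-quartile factors, limma-voom and at least 10 counts in every library 1 each (Vit), edgeR with the replicate block 0, and leaving out 1 library 0 to 2. For the 7 genes, 48 of 49 log2 fold changes under other tests, scalings and filters left sign and call as they were and 1 passed the threshold, and 38 of 42 with 1 library left out did. The 4 that changed sign were 0.02 and 0.13 for Creb5 without mutants 1 and 2 (range -0.29 to 0.13), 0.02 for Osr1 without mutant 2 (range -0.33 to 0.02) and -0.05 for Has2 without mutant 3 (range -0.05 to 0.26). With the replicate block, edgeR gave Prg4 -0.62, Creb5 -0.07, Erg -0.23, Osr1 -0.14, Osr2 0.28, Has1 0.15 and Has2 0.12, none past the threshold. The adjusted p over all alternatives was 0.00473 to 1 for Prg4 and 0.412 to 1 for Osr2. By CPM without length, 1 of the 7 genes kept its place in the order of levels. What causes them was not tested. With 3 libraries per group, the intervals of the 7 genes bound the size of change these libraries allow, and a missed threshold does not show equal levels.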

Other observations

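Apart from Tnmd and Krt5, no marker of the cell type lists passed the threshold. Osteoblast markers summed to 1201, 512 and 312 CPM in controls and 1384, 1763 and 1138 CPM in mutants. Ibsp, a bone matrix protein, was at 120 to 1475 CPM (log2 fold change 1.32, edgeR adjusted p = 0.557). It took most of the sum except in control 3, where Alpl was higher, at 148 against 120 CPM. Alpl had a log2 fold change of 0.26 (edgeR, adjusted p = 0.653). All 4 erythroid markers were lower in every mutant than in every control, as were 7.58% of all tested genes, with Alas2, the erythroid haem synthesis enzyme, at a log2 fold change of -1.67 (edgeR, adjusted p = 0.112) and Hbb-bt, a beta globin, at -1.37 (edgeR, adjusted p = 0.211). Of the myeloid markers, Ptprc had a log2 fold change of 0.58 (edgeR, adjusted p = 0.36) and Csf1r, the macrophage growth factor receptor, 0.24 (edgeR, adjusted p = 0.487). Thy1 and Col15a1, fibroblast markers, had log2 fold changes of -0.35 and -0.16 (edgeR, adjusted p = 0.377 and 0.778). Of the chondrocyte markers, Col2a1 and Col9a1 had log2 fold changes of 0.45 and -0.43 (edgeR, adjusted p = 0.699 and 0.764). Of the muscle markers, Myh8 and Acta1 had 0.23 and -0.15 (edgeR, adjusted p = 0.806 and 0.917), and the epidermal keratin Krt10 had -0.04 (edgeR, adjusted p = 0.978).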
